A study of Mus musculus with 4 samples.

Results

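The 10 genes described here carry the signal from the membrane of a skeletal muscle fiber to its calcium store and back (Ryr1, Atp2a1, Casq1, Cacna1s, Jph1, Jph2, Trdn, Sln, Pvalb and Stac3). They were taken by gene symbol from the 56691 genes of the deposited table, and each symbol occurred there once. The table covers 4 sarcomas from mice labelled p53R282W/+, called W/+ for the heterozygous p53 allele that all animals carried in the germline. This label uses the human residue number, and the study engineered the change at the corresponding mouse residue. Both ATO sarcomas (ATO-1 and ATO-2) came from mice given arsenic trioxide (ATO) at 35 mg per liter of drinking water from day 90 after birth until death. Both control sarcomas (PBS-1 and PBS-2) came from mice whose label names PBS and which the study describes as untreated. The labels name the tissue as sarcoma tumor and give neither the anatomical site nor the type of each tumor, while the study lists angiosarcoma, soft tissue sarcoma and osteosarcoma among the tumors of these mice. The labels do not describe the replicates further, so p-values measure only the spread between these 4 tumors.

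Skeletal muscle fibers contract when an action potential travels into the transverse tubules, where the membrane meets the sarcoplasmic reticulum at junctions called triads. There the voltage sensor Cacna1s couples to the release channel Ryr1, calcium leaves the store and binds to the contractile filaments, and the pump Atp2a1 returns it. Calsequestrin, triadin and the junctophilins hold the store and the junction together, and parvalbumin buffers calcium in fast fibers. Most of these proteins have relatives that serve heart, smooth muscle or other cells.

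Promoter sequences from RefSeq (GRCm38.p6) were found for 6 of the 10 genes, and the 250 bases before the start of 4 of them are shown, because the genes of this group had high and low values in the same sarcomas. Capitals mark the E-box letters CANNTG, which myogenic regulators bind, and a MEF2 motif, both read on either strand.
Cacna1s, chr1:136052561-136052810, plus strand: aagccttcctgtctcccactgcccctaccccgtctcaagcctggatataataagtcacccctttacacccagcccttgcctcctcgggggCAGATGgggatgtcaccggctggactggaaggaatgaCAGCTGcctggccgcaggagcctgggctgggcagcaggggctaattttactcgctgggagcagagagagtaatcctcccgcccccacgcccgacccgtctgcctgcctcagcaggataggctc
Casq1, chr1:172219896-172220145, minus strand: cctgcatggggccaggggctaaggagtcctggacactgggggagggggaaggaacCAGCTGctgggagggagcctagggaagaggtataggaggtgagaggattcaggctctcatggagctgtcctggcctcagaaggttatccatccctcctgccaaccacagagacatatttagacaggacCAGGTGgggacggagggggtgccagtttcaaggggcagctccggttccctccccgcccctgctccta
Atp2a1, chr7:126463074-126463323, minus strand: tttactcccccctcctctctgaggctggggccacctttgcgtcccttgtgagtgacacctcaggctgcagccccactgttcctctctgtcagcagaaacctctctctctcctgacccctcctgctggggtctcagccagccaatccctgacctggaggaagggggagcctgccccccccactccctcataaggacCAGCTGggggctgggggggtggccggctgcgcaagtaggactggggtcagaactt
Pvalb, chr15:78206401-78206650, minus strand: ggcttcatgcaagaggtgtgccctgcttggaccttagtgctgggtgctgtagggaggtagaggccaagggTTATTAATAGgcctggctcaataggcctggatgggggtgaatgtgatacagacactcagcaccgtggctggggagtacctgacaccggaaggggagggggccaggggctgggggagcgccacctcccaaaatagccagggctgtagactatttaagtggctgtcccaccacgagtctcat
The form CAGCTG, which is a subset of CANNTG, was present before the start of 4 of these 6 genes (Cacna1s, Casq1, Jph2 and Atp2a1) and in 13.0% of all 32851 promoters of that length. CANNTG in any form was present for 5 of the 6, for Pvalb before the second of its 2 starts, as in 66.2% of all promoters. The MEF2 motif was found for Pvalb, 180 bases before the start shown, and in 2.92% of all promoters. Ryr1 had neither motif in this window. These matches describe letters and not binding.

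Total counts ranged from 15259695 to 18134000 per sarcoma, so that a gene at 0 could hold up to 3 counts, or 0.165 to 0.197 CPM (counts scaled to library size), by counting error alone. ATO-2 stood apart by its mitochondrial share, 14.7% of counts against 1.98% to 2.59% elsewhere. Levels are given as the deposited FPKM (counts scaled to exon length and library size), which allows genes to be compared per length. Group differences were tested on counts with edgeR after TMM normalization.

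All 10 genes had their highest FPKM in ATO-1, against 3937 of the 17188 genes tested. All 10 were lower in PBS-2 than in ATO-2 by FPKM, and the share of all genes for which this held was not computed. ATO-1 exceeded ATO-2 by more than 3 times in 10 of the 10 genes, against 10.8% of all genes tested, counting those with more than 3 counts in both. The summed FPKM of the 10 genes was 10.1 in PBS-1, 45.6 in PBS-2, 4316 in ATO-1 and 283 in ATO-2. Together they took 1.57% of all counts in ATO-1, 0.0877% in ATO-2, 0.0169% in PBS-2 and 0.00403% in PBS-1. The ATO group thus held a high and an intermediate sarcoma, and the PBS group a low sarcoma and another with hardly any of these transcripts. In bulk tissue, fewer muscle cells and less RNA per cell cannot be told apart.

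**Figure D1:**
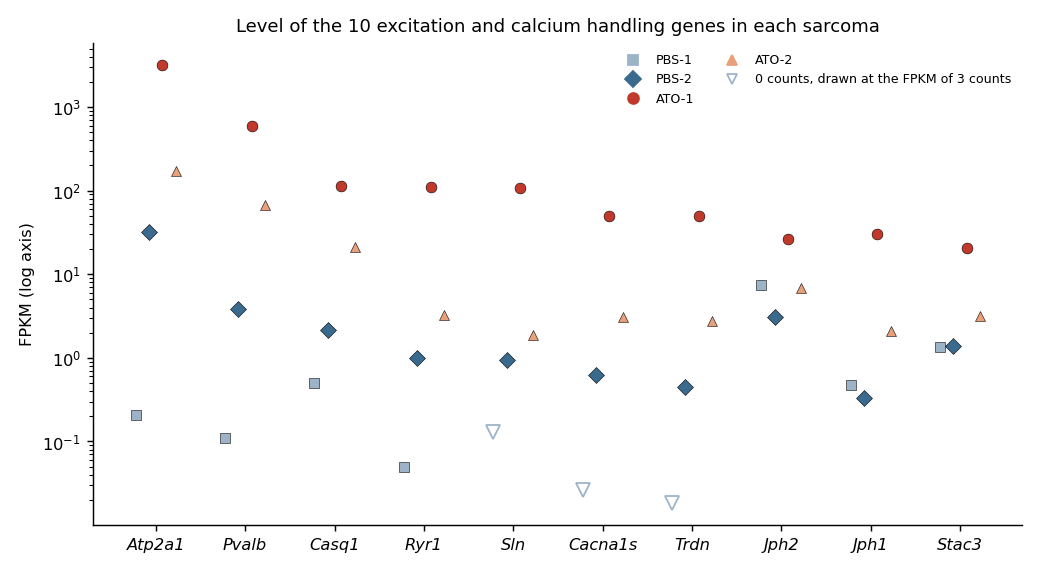
FPKM (log axis) of the 10 excitation and calcium handling genes in each of the 4 sarcomas, 1 symbol per sarcoma; open triangles are genes with 0 counts in PBS-1, drawn at the FPKM that 3 counts would give. ATO-1 is the highest for each gene, with 3219.6 for Atp2a1, and Jph2 and Stac3 are the genes whose PBS levels lie closest to those of ATO-2.

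The voltage sensor, its adaptor and the release channel were higher in both ATO sarcomas than in both PBS sarcomas. Cacna1s (ENSMUSG00000026407, chromosome 1 of GRCm38, 136052750 to 136119822, plus strand), the pore and voltage sensor of the skeletal L-type calcium channel, had an FPKM of 0 in PBS-1, 0.62 in PBS-2, 49.4 in ATO-1 and 3.10 in ATO-2. Its 0 counts in PBS-1 allow an FPKM of up to 0.0262. Both ATO sarcomas lay above both PBS sarcomas, and ATO-1 was 15.9 times ATO-2. Ryr1 (ENSMUSG00000030592, chromosome 7, 29003344 to 29125179, minus strand), the calcium release channel, had an FPKM of 0.05, 1.01, 111.6 and 3.30 in PBS-1, PBS-2, ATO-1 and ATO-2. ATO-2 was 3.27 times PBS-2, whereas ATO-1 was 33.8 times ATO-2, so the distance within the ATO group was the larger. Stac3 (ENSMUSG00000040287, chromosome 10, 127501686 to 127508823, plus strand), an adaptor needed to place and couple the voltage sensor, had an FPKM of 1.35 in PBS-1, 1.40 in PBS-2, 20.5 in ATO-1 and 3.20 in ATO-2. Its PBS values were nearly equal, at 1.04 times each other, unlike those of Ryr1, where PBS-2 was 20.2 times PBS-1. The groups did not overlap for any of these 3 genes. By FPKM, ATO lay above PBS without overlap in 2198 of the 17188 genes tested, and below in 5096.

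The genes of the junction and of the store differed among themselves. Trdn (ENSMUSG00000019787, chromosome 10, 33080554 to 33476709, plus strand), whose product triadin anchors calsequestrin to the release channel, had an FPKM of 0 in PBS-1, 0.45 in PBS-2, 49.4 in ATO-1 and 2.75 in ATO-2. Casq1 (ENSMUSG00000007122, chromosome 1, 172209894 to 172219868, minus strand), the calcium-binding protein of the fast fiber store, had an FPKM of 0.50, 2.14, 114.3 and 21.2 in the same order. Casq1 was 5.40 times higher in ATO-1 than in ATO-2 and 9.90 times higher in ATO-2 than in PBS-2. For Trdn these ratios were 18.0 and 6.11. Jph1 (ENSMUSG00000042686, chromosome 1, 16964560 to 17097889, minus strand), which ties the store to the tubule membrane in skeletal muscle, had an FPKM of 0.47 in PBS-1, 0.33 in PBS-2, 30.4 in ATO-1 and 2.12 in ATO-2. Jph2 (ENSMUSG00000017817, chromosome 2, 163336242 to 163397993, minus strand), the relative that heart and smooth muscle also use, had an FPKM of 7.43 in PBS-1, 3.11 in PBS-2, 26.5 in ATO-1 and 6.92 in ATO-2. Jph2 was the gene with the highest FPKM of the 10 in PBS-1, and ATO-2 lay below PBS-1 on this scale. On TMM-normalized CPM its values were 29.0, 12.0, 112.5 and 36.0, and there ATO-2 lay above PBS-1. Jph1 and Jph2 were the genes that were lower in PBS-2 than in PBS-1.

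Atp2a1 was the most abundant of the 10 by mean FPKM, and Pvalb came next, although in PBS-1 they ranked 5 and 6. Atp2a1 (ENSMUSG00000030730, chromosome 7, 126445858 to 126463108, minus strand), the SERCA1 pump of fast fibers, had an FPKM of 0.21 in PBS-1, 31.9 in PBS-2, 3219.6 in ATO-1 and 171.6 in ATO-2. Its 203003 counts made up 71.3% of the counts of the 10 genes in ATO-1, against 13 counts (1.85%) in PBS-1. It had the largest ratio between the PBS sarcomas, 151.7, among the genes with more than 3 counts in PBS-1. The opposite strand of Atp2a1 holds Rabep2, with 446, 774, 802 and 255 counts in PBS-1, PBS-2, ATO-1 and ATO-2, which did not follow the pump. Sln (ENSMUSG00000042045, chromosome 9, 53850164 to 53854560, plus strand), which encodes the small SERCA inhibitor sarcolipin, had an FPKM of 0 in PBS-1, 0.93 in PBS-2, 108.1 in ATO-1 and 1.89 in ATO-2. It had the widest gap of the 10 between the ATO sarcomas, 57.2 times, and ATO-2 with 38 counts was 2.03 times PBS-2 with 22 counts. Pvalb (ENSMUSG00000005716, chromosome 15, 78191114 to 78206400, minus strand), the cytosolic calcium buffer of fast fibers, had an FPKM of 0.11, 3.80, 586.4 and 67.3 in PBS-1, PBS-2, ATO-1 and ATO-2. It had the largest ratio of ATO-2 to PBS-2, 17.7.

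By edgeR's quasi-likelihood test with Benjamini-Hochberg adjustment over 17188 genes, 0 of the 10 genes passed an adjusted p of 0.05, as did 0% of all genes tested. All 10 passed the filter on low counts. An unadjusted p under 0.05 with a higher level in ATO was found for 8 of the 10, against 5.44% of all genes. Both ATO sarcomas lay above both PBS sarcomas by TMM-normalized CPM in 10 of the 10 genes, against 19.7% of all genes. By FPKM they did so in 9, the exception being Jph2, against 2198 of the 17188 genes tested. The median log2 fold change of the 10 genes was 6.71, against -0.016 for all genes tested. It was 3.40 without ATO-1 and 10.97 without PBS-2. DESeq2, run as an alternative, passed 6 of the 10 (Ryr1, Atp2a1, Casq1, Jph1, Pvalb and Stac3), against 3.26% of all genes called higher in ATO. With 2 tumors against 2, an exact permutation test cannot fall below p = 0.333.

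The fitted differences were large and so were their errors. Pvalb had 347 ± 369 CPM in ATO and 1.84 ± 2.46 in PBS (SD, n = 2), which is a log2 fold change of 7.55 with an SE of 2.08 (adjusted p 0.570 in edgeR). Its 2 counts in PBS-1 lie within the 3 that counting error allows a gene at 0. For Atp2a1 the level was 5941 ± 7370 CPM in ATO and 50.5 ± 70.5 in PBS (SD, n = 2), giving 6.88 on the log2 scale with an SE of 2.88 (adjusted p 0.597 in edgeR). Ryr1 had 1258 ± 1654 CPM in ATO and 10.4 ± 13.4 in PBS (SD, n = 2), or 6.91 on the log2 scale with an SE of 2.43 (adjusted p 0.570 in edgeR). In each of these 3 genes the SD in ATO exceeded the mean. Sln, Trdn and Cacna1s had log2 fold changes of 7.01 (SE 2.57), 6.996 (SE 2.55) and 6.55 (SE 2.44), with 0 counts in PBS-1. Casq1 had 136 ± 121 CPM in ATO and 2.34 ± 2.04 in PBS (SD, n = 2), with 5.86 (SE 1.21) and the smallest unadjusted edgeR p of the 10, 0.00551 (edgeR adjusted p 0.570). Jph1 had a log2 fold change of 5.48 (SE 1.36) and Stac3 had 3.28 (SE 0.93). Jph2 had the smallest difference, from 20.5 ± 12.1 CPM in PBS to 74.2 ± 54.1 in ATO (SD, n = 2), or 1.86 on the log2 scale with an SE of 0.78 (adjusted p 0.597 in edgeR). Adjusted p for the 10 genes ranged from 0.570 to 0.597 in this fit and from 3.1e-06 (Casq1 in DESeq2) to 0.872 over the alternatives.

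**Figure D2:**
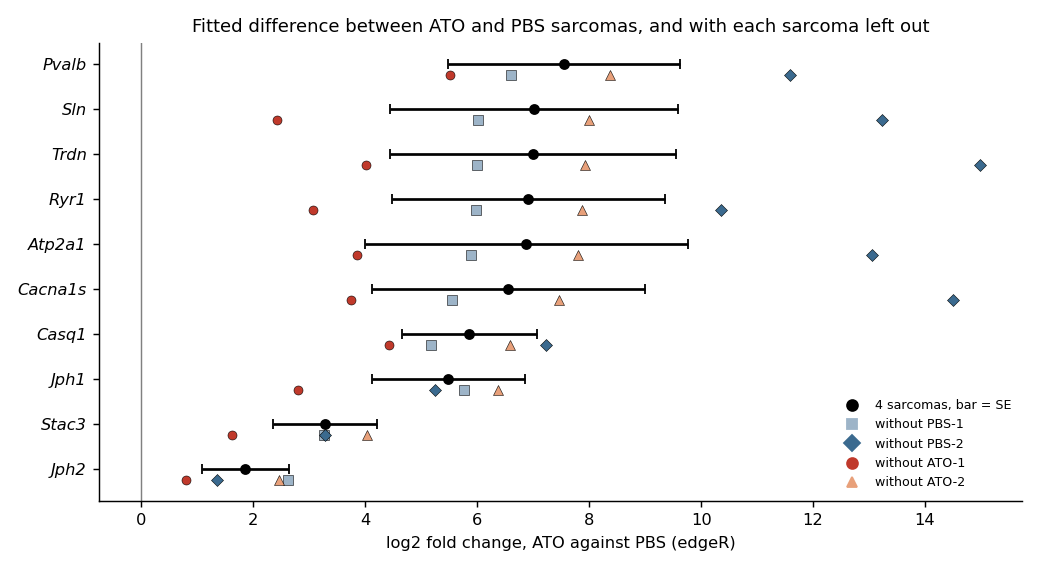
Fitted log2 fold change of ATO against PBS for each of the 10 genes (black points, edgeR, all 4 sarcomas, bars are SE), with the value after leaving out each sarcoma below it. Leaving out ATO-1 gives values between 0.79 (Jph2) and 5.52 (Pvalb), all above 0. The values without PBS-2 of Cacna1s, Trdn and Sln rest on a PBS count of 0 and depend on the fit's prior count. The value of Pvalb without PBS-2 rests on a PBS count of 2.

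Relative to Atp2a1, some of the genes had similar levels in PBS-2, ATO-1 and ATO-2, and PBS-1 differed from these. The ratios were taken within each sarcoma from FPKM and carry no test. In PBS-1, with 13 counts of Atp2a1, Ryr1 was 0.238 of Atp2a1, Jph1 2.24 times and Jph2 35.4 times. In each of the other 3 sarcomas every gene had at least 22 counts, and the spreads below cover those 3. Trdn was 0.0141 of Atp2a1 in PBS-2, 0.0153 in ATO-1 and 0.0160 in ATO-2, a spread of 1.13 times, although Atp2a1 itself differed 101.1 times between PBS-2 and ATO-1. Cacna1s and Jph1 spread 1.27 and 1.31 times, and Ryr1 1.80 times. The ratio of Atp2a1 to Ttn, the giant sarcomere protein titin, was 69.3 in PBS-2, 76.2 in ATO-1 and 79.8 in ATO-2, but 0.808 in PBS-1, which had 528 counts of Ttn. Pvalb was 0.119 of Atp2a1 in PBS-2, 0.182 in ATO-1 and 0.392 in ATO-2. Casq1 was likewise highest relative to the pump in ATO-2, at 0.124, against 0.0672 in PBS-2 and 0.0355 in ATO-1. Sln was lowest relative to the pump in ATO-2, at 0.0110, against 0.0336 in ATO-1. The widest spreads belonged to Stac3 (6.89 times) and Jph2 (11.8 times), both highest in PBS-2.

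**Figure D3:**
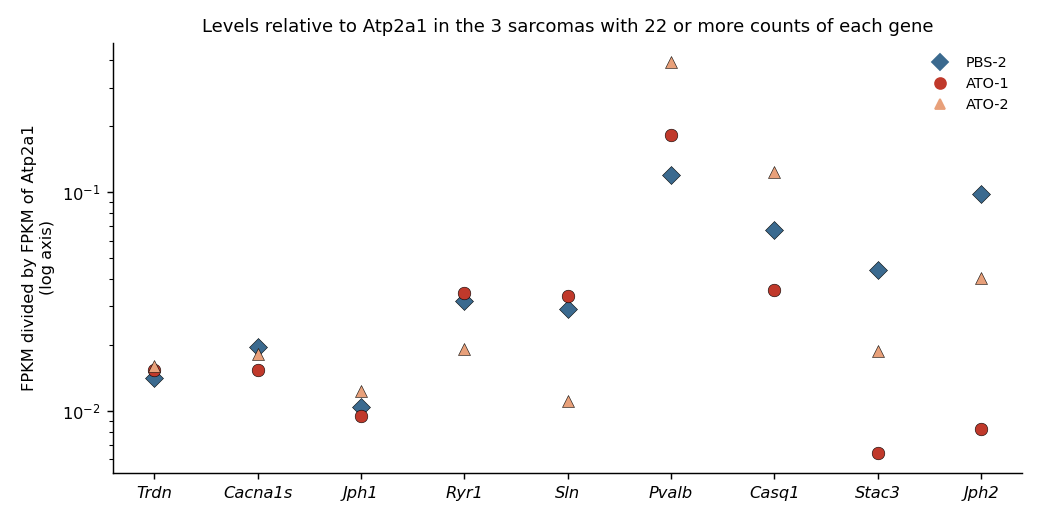
FPKM of the other 9 genes divided by the FPKM of Atp2a1 (log axis) in PBS-2, ATO-1 and ATO-2, ordered by the spread between the 3 sarcomas; PBS-1, with 13 counts of Atp2a1, is not drawn, and its ratios differ (2.24 for Jph1). The symbols nearly coincide for Trdn, Cacna1s and Jph1 and lie far apart for Stac3 and Jph2.

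Relatives of these genes that serve other tissues were set beside them. Of 13 such relatives, 9 passed the filter on low counts. In edgeR 5 of these had a higher and 4 a lower fitted level in ATO (median 0.02), 0 passed an adjusted p of 0.05 and 0 had an unadjusted p under 0.05, and DESeq2 passed 0 of the list. Atp2a2, the SERCA2 pump found in most cells, had an FPKM of 70.1 in PBS-1, 60.2 in PBS-2, 43.0 in ATO-1 and 59.1 in ATO-2. The share of Atp2a1 in the summed FPKM of the 3 SERCA genes was therefore 0.294% in PBS-1, 28.3% in PBS-2, 98.3% in ATO-1 and 72.8% in ATO-2. Cacna1c, the L-type pore of heart and smooth muscle, was highest in PBS-1 (FPKM 5.59) and at 1.21, 0.86 and 0.73 in PBS-2, ATO-1 and ATO-2. Cacna1s made up 97.1% of the FPKM of the 3 L-type pores in ATO-1 and 49.4% in ATO-2, where Cacna1d, a pore of neurons and endocrine cells, reached 2.44. Stac3 held 95.2% of the Stac family in ATO-1 but 25.8% in ATO-2, where Stac2 had an FPKM of 8.50. This ATO-2 share lay between the 27.2% of PBS-1 and the 21.05% of PBS-2. Ryr2 and Ryr3, the release channels of heart and of other tissues, stayed at an FPKM of 0.05 or less in every sarcoma. Casq2, the cardiac calsequestrin, was higher in both ATO sarcomas, at 4.09 and 1.05 against 0.52 and 0.79, with a log2 fold change of 2.16 that did not pass (edgeR adjusted p 0.588). Jph3, the relative of Jph1 found in brain, had the most negative fitted difference of these relatives, -2.13 (edgeR adjusted p 0.611), from an FPKM of 0.28 and 1.19 in PBS to 0.12 and 0.15 in ATO. How reads that align to several relatives were counted is not given in the sources used here, so values of close relatives are uncertain.

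**Figure D4:**
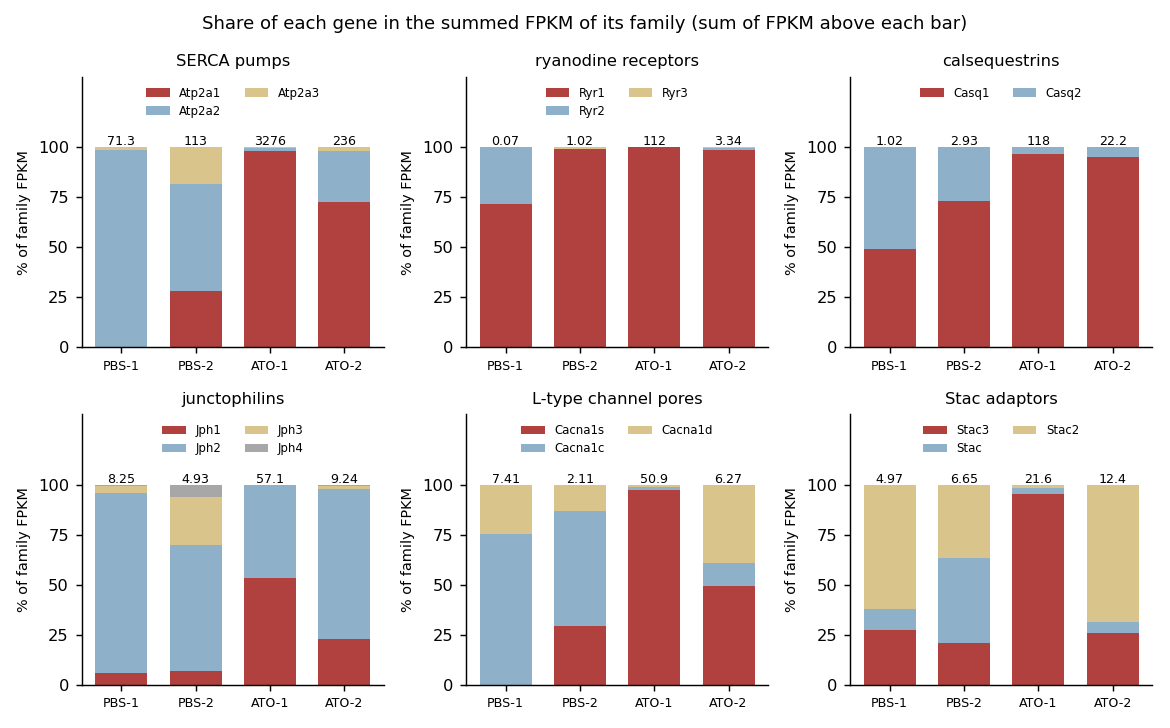
Share of each gene in the summed FPKM of its family (percent, stacked bars from 0 to 100, 1 bar per sarcoma), with the summed FPKM above each bar. Red marks Atp2a1, Ryr1, Casq1, Jph1, Cacna1s or Stac3; in the junctophilin panel Jph2 is blue. Atp2a1 fills 0.294% of the SERCA bar in PBS-1 and 98.3% in ATO-1, and the ryanodine receptor bar of PBS-1 rests on 28 counts.

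Beyond these genes, 43 others of excitation and calcium handling were read from 5 lists. Of these, 38 passed the filter, 33 with a higher and 5 with a lower fitted level in ATO (median log2 fold change 3.19). Among all 17188 genes tested, 8450 had a higher and 8738 a lower fitted level. In edgeR 0 of these 38 passed an adjusted p of 0.05 and 18 had an unadjusted p under 0.05, against 8.51% of all genes tested. DESeq2 passed 14 of the 43, all higher, against 3.26% of all genes, and gave no adjusted p for 2. Both ATO sarcomas lay above both PBS sarcomas by CPM in 26 of the 38, and 19.7% of all genes tested did so, which is the background for the counts of each list that follow. Among 12 genes of the triad and tubule structure, 8 lay above both PBS sarcomas in both ATO sarcomas by CPM. Sypl2, which encodes the triad protein mitsugumin 29, had the largest difference, with an FPKM of 0.01, 0.13, 13.5 and 2.96 in PBS-1, PBS-2, ATO-1 and ATO-2 and a log2 fold change of 7.03 (edgeR adjusted p 0.570). Fkbp1a, which encodes the widely expressed release channel regulator FKBP12, had the highest mean level of this list and went the other way, at 90.6 and 173.4 in PBS against 38.7 and 50.02 in ATO. Bin1, a shaper of tubule membranes, overlapped between the groups, at 42.5, 15.5, 87.5 and 16.3.

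Among the 4 further subunits of the voltage sensor channel, Cacng1, the gamma subunit, had an FPKM of 123.3 in ATO-1 but 0.89 in ATO-2, below the 5.17 of PBS-2. Cacng6 had the largest difference there, 6.67 (edgeR adjusted p 0.570), from 0 and 0.17 in PBS to 14.4 and 1.69 in ATO. Among the 10 genes of membrane excitation, 8 lay above both PBS sarcomas in both ATO sarcomas. Scn4a, the sodium channel of skeletal muscle, had an FPKM of 25.2 and 1.24 in ATO and 0.06 and 0.51 in PBS. Clcn1, the chloride channel that steadies the resting membrane, had 6.84 and 0.76 in ATO against 0.32 and 0.17. Of the 9 genes of calcium uptake, entry and binding, 7 passed the filter and 5 of these lay above. Camk2b, a calcium-dependent kinase, had the largest difference, 3.46 (edgeR adjusted p 0.570). S100a1, a calcium sensor, was highest in ATO-2 (204.6, against 44.0 in ATO-1 and 22.1 and 20.6 in PBS).

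The summed FPKM of the genes of the neuromuscular junction was lower in ATO-2 (3.71) than in PBS-1 (8.02) and PBS-2 (13.4), and was 30.9 in ATO-1. Of 8 genes, 5 passed the filter, 4 with a higher fitted level, and 3 lay above. Chrna1, the alpha subunit of the muscle acetylcholine receptor, had an FPKM of 8.08 in ATO-1 but 0.24 in ATO-2, below the 1.98 and 0.85 of the PBS sarcomas. The beta subunit Chrnb1, which had the highest mean level of the list, was likewise lowest in ATO-2, at 2.23, against 12.0 in ATO-1, 5.61 in PBS-1 and 11.6 in PBS-2. Musk, the receptor kinase that gathers these receptors, had the largest difference, 4.31 (edgeR adjusted p 0.570), from 0.14 and 0.06 in PBS to 3.34 and 0.23 in ATO.

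Markers of cell types were read beside these genes, and 0 of them passed an adjusted p of 0.05 in edgeR, as did 0% of all genes. DESeq2 passed 7 of 8 fast fiber, 6 of 6 general muscle, 4 of 6 slow fiber and 6 of 6 adipocyte markers, all higher in ATO. It also passed 1 of 6 myogenic regulators, and 0 cardiac, smooth muscle or nerve markers. Of all genes, 3.26% were called higher in ATO by DESeq2. It gave no adjusted p for 3 myogenic regulators and 4 cardiac markers. Of the 17188 genes tested, 3937 had their highest FPKM in ATO-1 and 2678 in ATO-2. The 8 fast fiber markers had a summed FPKM of 6.93 in PBS-1, 86.0 in PBS-2, 11240 in ATO-1 and 613 in ATO-2, in the same order as the calcium handling genes, and all 8 were highest in ATO-1. Tnnt3, the fast troponin T, had the highest mean level, at 3.73, 21.6, 2979 and 181.5 in PBS-1, PBS-2, ATO-1 and ATO-2. Myh4, the fastest myosin, had the largest difference and reached 3029 in ATO-1 against 90.5 in ATO-2, 16.8 in PBS-2 and 0.14 in PBS-1. The 6 general muscle markers followed the same order, from 5.02 in PBS-1 to 5943 in ATO-1. Skeletal actin, Acta1, led them with an FPKM of 0.78, 46.5, 3898 and 427.6, and Ckm, muscle creatine kinase, had the largest difference (7.42). The 6 slow fiber markers did not, since all 6 were highest in ATO-2, with sums of 2.36, 14.05, 25.1 and 90.2 in PBS-1, PBS-2, ATO-1 and ATO-2. Myh7, the slow myosin, had an FPKM of 17.5 in ATO-2 and 2.97 in ATO-1. Troponin C, Tnnc1, had the highest mean level of the slow list (1.21, 3.26, 8.90 and 21.97), and the myosin light chain Myl2 the largest difference (4.29). Of the 6 myogenic regulators, all were at 0 counts in PBS-1. Myog had an FPKM of 0.63 in PBS-2, 6.23 in ATO-1 and 0.48 in ATO-2, so PBS-2 lay above ATO-2. Myod1 had the largest difference (6.28), with 1, 70 and 15 counts in PBS-2, ATO-1 and ATO-2. Mymk and Mymx had 6 and 1 counts in PBS-2 and 0 in ATO-2. Pax7 and Myf5 had 0 and 1 counts in PBS-2 and 2 each in ATO-2. Of the 6 cardiac markers, Myh6, Nppa and Myl7 stayed at 6 counts or fewer in every sarcoma, Nppb had 1, 13, 0 and 2 counts, Tnni3 ranged from 0.99 to 2.19 FPKM, and Tnnt2, with the largest fitted difference (1.80), overlapped between the groups. Adipocyte markers were also higher in ATO, with sums of 12.8 and 66.6 in PBS, 361 in ATO-1 and 1841 in ATO-2, so that ATO-2 and not ATO-1 was highest in 6 of 6. Fabp4, a fatty acid carrier, led them with 12.6, 66.1, 154.8 and 809.1, and Plin1, the lipid droplet coat protein, had 0 and 1 counts in PBS and 445 and 7630 in ATO. The summed FPKM of the smooth muscle markers was lowest in ATO-1 (40.1) and highest in PBS-1 (289.6), led by Acta2 (210.4, 62.5, 17.7 and 151.4). Single genes of this list differed. Acta2, Cnn1 and Tagln were highest in PBS-1, while Myh11 (8.99) and Lmod1 (4.83) were highest in ATO-2. Smtn was highest in PBS-2 (36.9) and lowest in ATO-2 (9.84). Lmod1 had the largest fitted difference of the list (2.09). Nerve and Schwann cell markers summed to between 32.4 and 84.1, with Pmp22 the highest. The part of muscle fibers or other cells in the group differences was not tested.

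**Figure D5:**
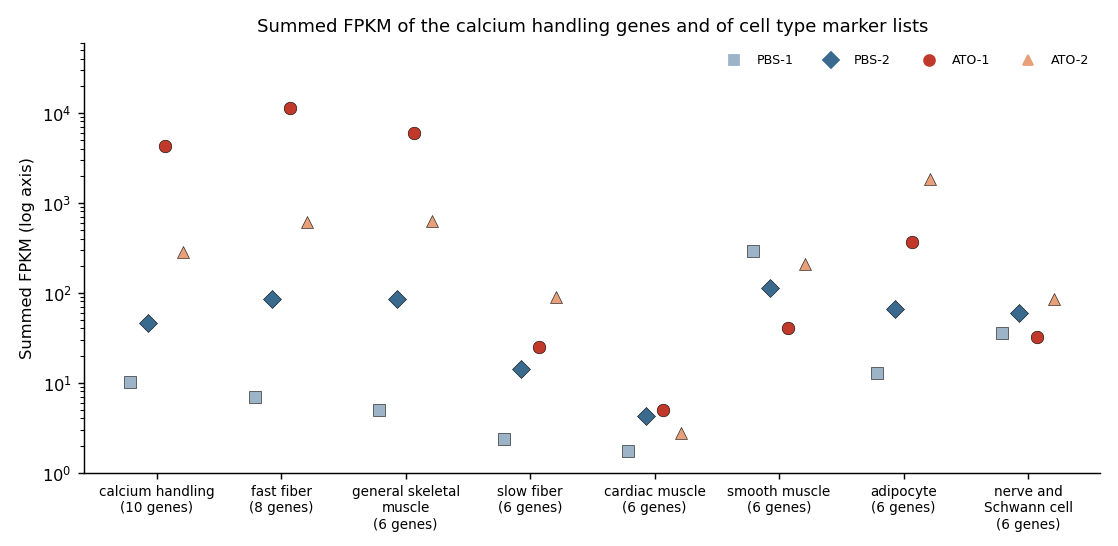
Summed FPKM (log axis) of the 10 calcium handling genes and of 7 marker lists in each sarcoma, 1 symbol per sarcoma. The calcium handling, fast fiber and general muscle sums share the order PBS-1, PBS-2, ATO-2, ATO-1, while slow fiber and adipocyte sums are highest in ATO-2.

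The 5 genes outside the group whose pattern was most like it were Klhl41, Myoz1, Mypn, Myom1 and Hrc. Likeness was measured over the 4 sarcomas as the root mean square difference from the median centered log2(CPM + 1) profile of the 10 genes. The search covered the 13728 other genes that passed the filter on low counts, had a symbol and reached a mean FPKM of 1. The difference was 0.155 for Klhl41, with an FPKM of 0.23 in PBS-1, 2.42 in PBS-2, 166.7 in ATO-1 and 12.2 in ATO-2, and 0.303 for Hrc, the histidine-rich calcium-binding protein of the store. Within the group, Cacna1s (0.151) and Trdn (0.319) lay closest to the common profile, and Atp2a1 (1.89) and Jph2 (2.22) farthest from it. The added 1 lowers the differences of genes near 0, so these distances also depend on the level of a gene.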

How the data were processed

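RNA-seq counts of 4 sarcomas (2 ATO, 2 PBS, grouped by the titles of the samples) were used. The authors removed adapters with cutadapt 1.9.1, aligned reads with HISAT2 2.0.1 to GRCm38 and counted them per gene with HTSeq, and the raw counts were deposited without normalization. The strand setting is not given in the sources used here. The labels and the methods name different library kits, and all 4 labels carry culture conditions (insulin, dexamethasone, isobutylmethylxanthine) whose bearing on tumor tissue is not explained. The deposited FPKM equals count over exonic gene size and total count, to within 0.0051 in all 56691 genes. Positions in the table match GENCODE M21 (GRCm38) for only 1472 of 52073 shared genes, so gene coordinates printed here are those of GENCODE, looked up by gene identifier.

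Group differences in counts came from edgeR 4.0.16 under R 4.3.3 (low-count filter by filterByExpr, TMM, quasi-likelihood F test, Benjamini-Hochberg), and the SE is the log2 fold change over the root of F. CPM are counts scaled to the TMM-adjusted library. DESeq2 1.42.0, edgeR with DESeq2's scaling, with all genes kept or with a replicate block, limma 3.58.1 on log2(FPKM + 1), and fits lacking each sarcoma in turn served as alternatives. EdgeR with and without the replicate block, DESeq2 and limma were run on simulated counts. Those counts had less spread between replicates than these sarcomas, so this checked the code and not the error rates here. The genes and lists were chosen with earlier results of these data known. From each list the genes with the highest mean FPKM and the largest difference were named, with others picked after their values were seen; some genes that this rule names are not reported here.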

Additional observations from a re-analysis of the deposited data

How the results depend on the processing

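All 10 genes were higher in ATO in the main comparison and in each alternative run. Over all genes, 0 passed in the main comparison, 754 passed by DESeq2, 541 passed when edgeR kept every gene, and 0 passed elsewhere. The corresponding numbers among the 10 genes were 0, 6, 9 (all but Jph2) and 0. The cause was not tested. The median log2 fold change was 3.59 in limma on log2(FPKM + 1), where the pseudocount lowers the differences of genes near 0, and ranged from 3.40 (without ATO-1) to 10.97 (without PBS-2) with each sarcoma left out. In those fits the group with 1 sarcoma is assumed to vary like the other. Neither the labels nor the methods say that equal numbers pair the sarcomas, and deviations from the group means correlated at 5.04e-05 between equal numbers. With the replicate block the median was 6.21 and 0 genes passed. Among the 10 genes, both ATO sarcomas lay above both PBS sarcomas in 9 by FPKM and in 10 with DESeq2's size factors. These alternatives were added after seeing the data. By FPKM 2198 of the 17188 genes tested did so, and the share with the size factors was not computed. Leaving out a sarcoma cannot lower the number among the 10 genes, so it tests nothing here. The order of the 10 genes by mean level was the same for FPKM and for CPM per kilobase. Both divide by the same gene lengths and differ only in library scaling, so this agreement tests little. The order differed between sarcomas, with Jph2 at rank 1 in PBS-1 and rank 9 in ATO-1. Depth limits the low sarcomas: Sln had 22 counts in PBS-2 and 0 in PBS-1.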
